A study of Canis lupus familiaris with 8 samples.

Results

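MicroRNA levels were compared between a doxorubicin-resistant canine mammary tumour cell line, CMT-Star (Star), and the sensitive line it was derived from, CMT-Stylo (Stylo). The comparison takes 4 of the 8 samples of the series, 2 of the Star parent and 2 of the Stylo parent, where parent means unsorted cells in culture, and all 454 miRNAs with probes on the array. Star arose from Stylo through several months in rising doxorubicin, until the cells withstood 100 nM. The labels call Star doxorubicin treated and Stylo non treated and do not say whether drug was present at harvest, so acquired resistance and drug exposure cannot be told apart, and the labels describe 1 resistant line. Both lines were kept in the same medium with 10% serum. The other 4 samples (2 of Star, 2 of Stylo) are cells sorted by flow cytometry as ALDH+, CD44+ and CD24-/low, used here for the spread between arrays and for 1 comparison at the end.

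MicroRNAs are short RNAs that guide Argonaute proteins to messenger RNAs, mostly through a seed near their 5′ end, and lower the output of those messages. Many are cut from shared primary transcripts, so that neighbours in the genome can rise and fall together. Doxorubicin intercalates into DNA and poisons topoisomerase II. In human cancer cells, miRNAs have been tied to resistance through drug efflux pumps, the p53 response and regulators of apoptosis.

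The deposited scanner files of Stylo parent replicates 1 and 2 held identical values and entered as 1 array. The parents therefore had 3 distinct arrays, 2 of Star and 1 of Stylo, of 7 in the series. All 3 lay on the same slide, but both Star arrays carried position codes of its row 2 and the Stylo array one of its row 1, so line and row cannot be told apart. Of 18160 spots for dog miRNAs per array, 1079 and 1170 were well above background on the Star parent arrays and 924 on the Stylo parent array, and 0 were saturated. At the level of miRNAs these were 35, 40 and 33 of 454. In all, 29 miRNAs were well above background on all 3 parent arrays, 6 on both Star arrays only, 3 on the Stylo array only, and 411 on none. The sorted Stylo array of replicate 1 lay on another slide, scanned separately, and was left out of the fit reported first. None of the 8 epithelial miRNAs listed for a mammary epithelial identity (the miR-200 family, miR-203, miR-205 and miR-375) was well above background on any parent array.

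Levels are given as scaled log2 signals: the summed probe signal of a miRNA divided by a per-array factor (189.7 and 191.9 for Star, 153.1 for Stylo), with a common floor at −2.99. They compare 1 miRNA across arrays and not 1 miRNA with another. Differences are Star minus Stylo on the log2 scale with limma's standard error, n = 2 and 1 arrays, and names leave out the cfa- prefix for dog. Since Stylo had 1 array, the fit took its spread from the Star pairs (2 residual degrees of freedom) and assumed that Stylo varies alike. The labels do not say that replicates were separate cultures, so p-values measure the spread between these arrays, which may be technical.

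Against the Stylo parent, the Star parent held more of the miR-23b and miR-27b pair, miR-23a, miR-29a and miR-22, and less miR-92a, miR-155, miR-15b, let-7b and let-7e. With the 6 arrays of the shared slide, 20 of 50 tested miRNAs passed an adjusted p of 0.05 (limma, Benjamini-Hochberg), 10 higher in Star (20% of those tested) and 10 lower (20%), or 40% in all. Of these 20, 12 were well above background on all 3 parent arrays, 6 higher and 6 lower. With the separate-slide array added, 1 of 46 passed, miR-155 (2.17%; 6 had an unadjusted p below 0.05), and with the slide as a block 32 of 46 did (69.6%; 10 higher, 22 lower, the latter 47.8%). That array is alone on its slide, so the block fits it exactly and it adds no spread. The block fit reuses the 6 arrays under another scaling, which lowered miR-29a from 1.03 to 0.78 and let-7a from −0.17 to −0.42. In both 7-array fits the median over all tested lay at −0.25, against 0.00 on the slide alone. The authors' value table, brought back to log2 totals here, covers all 8 samples, and its Stylo parent replicate 2 column is not a copy of replicate 1. There 18 of 56 passed (32.1%; 10 higher, 8 lower), 14 of them among the 20. Leaving out a Star array moved the count of 20 to 3 without Star parent replicate 1, 6 without Star parent replicate 2, 6 without sorted Star replicate 1 and 5 without sorted Star replicate 2. Of the miRNAs named first, miR-23b, miR-92a, miR-155 and let-7b kept the call with the 3 parent arrays alone. MiR-27b, miR-23a, miR-29a, miR-22, miR-15b and let-7e lost it there, so their calls rest partly on the spread of the sorted Star arrays. The Stylo array lay outside both Star arrays for 37 of 50 miRNAs (74%), so that alone sets few apart.

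**Figure D1:**
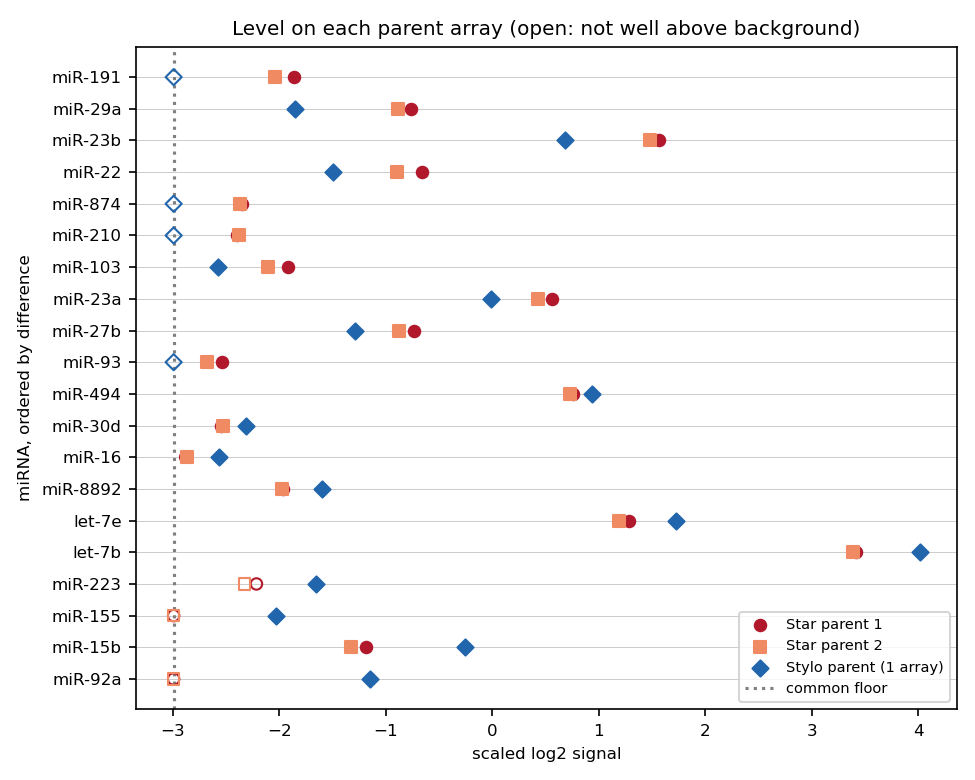
Scaled log2 signal (x axis) of the 20 miRNAs that passed in the slide-matched fit, one row per miRNA ordered by the difference. Circles and squares are the 2 Star parent arrays, diamonds the 1 Stylo parent array, open marks were not well above background, and the dotted line is the common floor at −2.99. The 2 Star arrays lie close together in every row and the Stylo array lies to one side of both. The rows were picked by a test on the spread of the Star pairs, so this follows from the choice. For miR-92a and miR-155 both Star values were set to the floor.

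A partial check on the Stylo spread is possible in the value table. Over the 22 miRNAs detected in all 8 columns, the 2 Stylo parent columns differed by 0.176 on average on the log2 scale and the 2 Star parent columns by 0.154. The largest differences were 0.95 between the Stylo columns and 1.44 between the Star columns. This choice leaves out every miRNA that the second Stylo column did not detect, so it cannot show that Stylo varies as Star does. Of the 25 miRNAs detected in all 4 parent columns, Star lay above both Stylo columns for 7, below both for 13, and overlapped them for 5. Of the 20 miRNAs that passed on the slide, 11 were detected in all 4 parent columns, and those 11 passed in the value table too. They are miR-29a, miR-23b, miR-22, miR-23a and miR-27b, higher in Star, and miR-92a, miR-155, miR-15b, let-7b, let-7e and miR-494, lower in Star. The table's Star columns and Stylo replicate 1 column follow the same arrays as the scanner files, so only the second Stylo column holds new values. Which array that column came from is not stated. Like the column of sorted Stylo replicate 1, it departs from its scanner file and has a median of 6.15. Whether it shares the slide of the other parent columns is not known. The second Stylo column detected 25 miRNAs, against 48 to 54 in the other 3 parent columns.

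**Figure D2:**
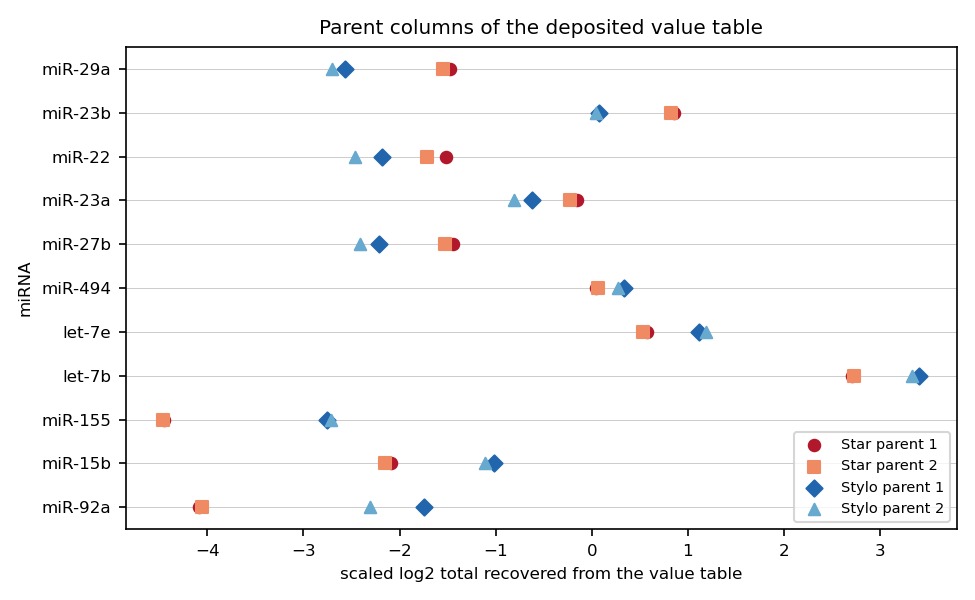
Scaled log2 totals recovered from the authors' value table (x axis) for the 11 miRNAs that passed on the slide and were detected in all 4 parent columns. Each row shows 2 Star columns and 2 Stylo columns. In every row both Star columns lie on 1 side of both Stylo columns, with the smallest gap at miR-494.

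The miR-23b and miR-27b genes neighbour each other and miR-24-1 in the dog RefSeq table, and miR-23a sits with miR-27a and miR-24-2 in a paralogous cluster. In human and mouse cells these clusters act on cell-cycle and metabolic targets, and miR-27 has been linked to drug efflux. All 3 tested members of the 5 listed rose in Star (3 of 3, where 20% of all tested rose, with a list median of 0.51 against 0.00 over all 50 tested). The untested members, miR-27a and miR-24, were well above background on none of the 6 arrays. Since miR-23b and miR-27b are neighbours, the 3 rises need not be separate observations. Whether probes of the paralogs miR-23a and miR-23b share signal was not tested. MiR-23b stood at 1.56 and 1.48 in Star and at 0.68 in Stylo, a rise of 0.84 ± 0.05 (1.79-fold; limma adjusted p = 0.00995). Before scaling, its summed signal was 560 and 536 against 245. Both of its probes that were measured on every parent array gave rises, of 0.81 and 0.97. MiR-27b stood at −0.74 and −0.87 in Star and −1.29 in Stylo, 0.49 ± 0.07 higher (adjusted p = 0.0268). MiR-23a stood at 0.56 and 0.43 in Star and −0.01 in Stylo, 0.51 ± 0.07 higher (adjusted p = 0.0246). No array of either line overlapped the other for any of the 3, as for 37 of all 50 tested (74%), among them every miRNA that passed. In the value table the rises were 0.78 ± 0.05, 0.83 ± 0.12 and 0.53 ± 0.10 in the same order, with miR-23b at 0.85 and 0.82 in Star and 0.07 and 0.04 in Stylo. Across all 7 arrays the same differences were 0.59, 0.24 and 0.26 and did not pass (adjusted p = 0.838, 0.902 and 0.381). These 3 also passed with no scaling at all, at 1.16, 0.80 and 0.82. The scaling factor was lowest for Stylo, so leaving it out shifts all miRNAs above the floor equally towards Star. Rises grow there by construction.

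MiR-29a, which lowers collagen and other matrix messages and the anti-apoptotic MCL1 in human cells, had the largest rise among miRNAs measured on every parent array. It stood at −0.76 and −0.89 in Star and −1.86 in Stylo, 1.03 ± 0.07 higher or 2.04-fold (adjusted p = 0.00995). Its unscaled signals were 112 and 104 against 42.3. The value table gave 1.13 ± 0.07 (adjusted p = 0.000415), with columns at −1.47 and −1.55 in Star and −2.57 and −2.70 in Stylo. Both sets of values put every Star value about 1 log2 unit above Stylo, but they share the same arrays apart from the second Stylo column. Across all 7 arrays the rise was 0.78 ± 0.58. Its family members miR-29b and miR-29c were not tested, being well above background on too few arrays.

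MiR-22, a miRNA with both tumour-suppressing and metastasis-promoting roles described in breast cancer, stood at −0.66 and −0.90 in Star and −1.49 in Stylo, 0.71 ± 0.14 higher (adjusted p = 0.0479). The table's columns gave the same size, 0.71 ± 0.13 (adjusted p = 0.0139). MiR-103, which targets Dicer in human cells and lies within the pantothenate kinase genes PANK2 and PANK3 in the dog table, stood at −1.92 and −2.11 in Star and −2.57 in Stylo, 0.56 ± 0.11 higher (adjusted p = 0.0479). MiR-103 was at 1.22 ± 0.51 in the value table (adjusted p = 0.132), where its second Stylo column lay at the floor. Its relative miR-107 was not well above background on any parent array and lay at the floor in all 3, so it showed no difference on the slide. In the value table, miR-107 was detected in both Star columns, at −4.39 and −4.43, and in neither Stylo column, and passed (adjusted p = 0.00252), but with no bound above 1.

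MiR-191, miR-874, miR-210 and miR-93 also passed, but were not well above background in Stylo, so that only a lower bound of their fold is known. Each bound divides the mean of the brighter line by the higher of 2 signals of the dimmer one, its own or the lowest measured on that array. MiR-191, often raised in solid tumours, had unscaled signals of 52.3 and 46.6 in Star and 15.2 in Stylo, at least 1.54-fold higher in Star (adjusted p = 0.0238). MiR-210, induced by hypoxia through HIF-1α, had 36.1 and 36.9 against 2.53, at least 1.14-fold higher (adjusted p = 0.023). No spot of 39 for miR-210 was well above background on the Stylo array (0 of 39), against 18 of 36 and 19 of 40 on the Star arrays. MiR-874, a suppressor of growth in human breast cancer lines, had 37.3 on both Star arrays against 9.99, at least 1.16-fold higher (adjusted p = 0.00995). MiR-93 had 32.6 and 30.1 against 11 (adjusted p = 0.0479), with no bound above 1. In all 4 the Stylo value lay at the floor, so the log2 differences of 0.38 to 1.04 are distances to it. Neither miR-210 nor miR-93 was detected in a Stylo column of the value table. There miR-210 was higher in Star by at least 1.68-fold (adjusted p = 0.00409) and miR-93 by at least 1.65-fold (adjusted p = 0.043). MiR-874 did not pass there (1.41 ± 0.42, adjusted p = 0.0607). MiR-99b had the same detection pattern, with 38.8 and 35.7 against 15.4, and did not pass on the slide (0.63 ± 0.19, adjusted p = 0.0869) but passed in the value table, at least 1.5-fold higher (adjusted p = 0.0386). Let-7g was well above background on both Star arrays and not on the Stylo array, yet its scaled values of −2.78 and −2.89 lay below Stylo's −2.63 (−0.21 ± 0.07, adjusted p = 0.1).

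MiR-92a, of the oncogenic miR-17 cluster and its paralogs, showed the largest fall among the 50 tested. Only the Stylo parent array had it well above background, with unscaled signals of 69.3 in Stylo and 23.6 and 22.3 in Star. After scaling it was at least 3.23-fold lower in Star (log2 difference −1.85 ± 0.13 to the floor, adjusted p = 0.00995), and without scaling it did not pass (−1.42, adjusted p = 0.0523). The value table had it detected in all 4 parent columns, at −4.08 and −4.05 in Star and −1.75 and −2.31 in Stylo, a fall of 2.04 ± 0.50 (adjusted p = 0.0366). Of the 14 listed cluster members and paralogs, 3 were tested, with miR-92a lower, miR-93 higher and miR-25 at the floor in all 3 parent arrays (median 0.00). MiR-93 and miR-25 lie together in MCM7 in the dog table, apart from the miR-92a genes.

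MiR-155, which promotes lymphoma in mice and rises when lymphocytes and macrophages are activated, was well above background on the Stylo array (17 of 38 spots) and on neither Star array (1 of 38 and 2 of 40). Its unscaled signals were 37.5 in Stylo and 18.1 and 15.9 in Star, at least 1.75-fold lower in Star (−0.96 ± 0.02, adjusted p = 0.00142). Since both Star values were set to the floor, their measured spread is 0 and the error is too small. MiR-155 was detected in all 4 parent columns of the value table, at −4.45 and −4.46 in Star and −2.76 and −2.71 in Stylo, and fell by 1.72 ± 0.05 (adjusted p = 3.81e-05). MiR-223, a myeloid miRNA, had unscaled signals of 48.7 in Stylo and 40.9 and 38.2 in Star, which were not well above background there. Scaled, it was 1.53-fold lower in Star as measured (adjusted p = 0.022), and without scaling the difference was −0.30 and did not pass (adjusted p = 0.0653). MiR-223 was at 0.62 ± 1.03 in the value table (adjusted p = 0.767), where the second Stylo column lay at the floor and the first above both Star columns. MiR-155 and miR-223 were the 2 of 9 listed haematopoietic miRNAs well above background on a parent array, and the list's summed scaled level was 0.384 and 0.387 in Star and 0.64 in Stylo. These 2, which had passed as lower, make up most of that sum, so it shows no fall of the rest of the list. MiR-142, miR-144, miR-150, miR-451 and miR-486, which define blood cells, were not well above background on any parent array. The part of other cells in the result was not tested.

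MiR-15b, which lowers BCL2 and cyclins in human cells, stood at −1.19 and −1.33 in Star and −0.26 in Stylo, and fell by 1.005 ± 0.08 or 2.01-fold (adjusted p = 0.01). Its unscaled signals were 83.2 and 76.3 against 128. The value table gave a fall of 1.06 ± 0.06 (adjusted p = 0.000415), with Star at −2.09 and −2.15 and Stylo at −1.02 and −1.11. Its genomic neighbour miR-16, which shares its seed, passed as well on the slide, at −2.88 and −2.86 against −2.57 (−0.30 ± 0.03, adjusted p = 0.0154). Before scaling, however, miR-16 had 25.8 and 26.4 in Star and 25.8 in Stylo. It turned to 0.02 without scaling and to 0.32 in the value table (adjusted p = 0.815), where the second Stylo column did not detect it and lay at the floor. Without that column miR-16 was at −0.37 there (adjusted p = 0.802).

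The let-7 family restrains RAS, MYC and HMGA2 and promotes differentiation. All 6 tested members of the 10 listed (9 on the array) lay below 0 (median −0.24), and 2 of 6 passed on the slide, let-7b and let-7e, where 20% of all tested passed as lower. Let-7b stood at 3.42 and 3.39 in Star and 4.01 in Stylo, a fall of 0.61 ± 0.04 or 1.53-fold (adjusted p = 0.00995). Let-7b had the highest signal on every array of the slide, so quantile normalisation sets its difference to 0.00 by construction and cannot test it. Let-7e stood at 1.28 and 1.19 in Star and 1.72 in Stylo, a fall of 0.48 ± 0.05 (adjusted p = 0.0181). Both also stood lower in Star before scaling, with 2028 and 2005 against 2470 for let-7b and 461 and 439 against 504 for let-7e, though neither passed on that scale (−0.29 and −0.17, adjusted p = 0.166 and 0.343). The 2 fell by 0.65 ± 0.06 and 0.60 ± 0.06 in the value table (adjusted p = 0.00144 and 0.00165). Let-7c (−0.27, adjusted p = 0.0598) and let-7a (−0.17, adjusted p = 0.0869) did not pass on the slide and passed in the value table, at −0.33 and −0.28 (adjusted p = 0.0139 and 0.0298). Without scaling, 4 of the 6 lay above 0, namely let-7c (0.05), let-7a (0.15), let-7f (0.29) and let-7g (0.05). Let-7f did not differ detectably (−0.02 ± 0.05, adjusted p = 0.798). Family members are near-identical in sequence, so signal may be shared between their probes and each single member is uncertain. Of the neighbours let-7e and miR-99b, let-7e fell by 0.48 while miR-99b, at 0.63 to the floor, did not pass, and the neighbours let-7a and let-7b both lay below 0.

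The other small falls depend on the scaling. MiR-494, of the imprinted DLK1-DIO3 cluster, stood at 0.76 and 0.73 in Star and 0.94 in Stylo (−0.20 ± 0.02, adjusted p = 0.021), but its unscaled signals of 320 and 318 lay above Stylo's 294. MiR-30d, of a family that represses epithelial-to-mesenchymal transition factors, was at −0.22 ± 0.04 (adjusted p = 0.0479), with unscaled signals of 32.5 and 33.4 against 30.8. MiR-8892, for which no role is given here, was at −0.37 ± 0.04 (adjusted p = 0.0154), with 48.6 and 48.8 against 50.5. Without scaling the 3 came to 0.12, 0.10 and −0.05, and 5 miRNAs passed in all (4 higher, 1 lower), namely miR-23a, miR-23b, miR-27b, miR-29a and miR-155. Leaving out the scaling moved the median of all tested from 0.00 to 0.15. The differences of miR-29a, miR-23b, miR-15b and miR-92a kept their sign with and without it, at 1.35, 1.16, −0.69 and −1.42 unscaled.

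**Figure D3:**
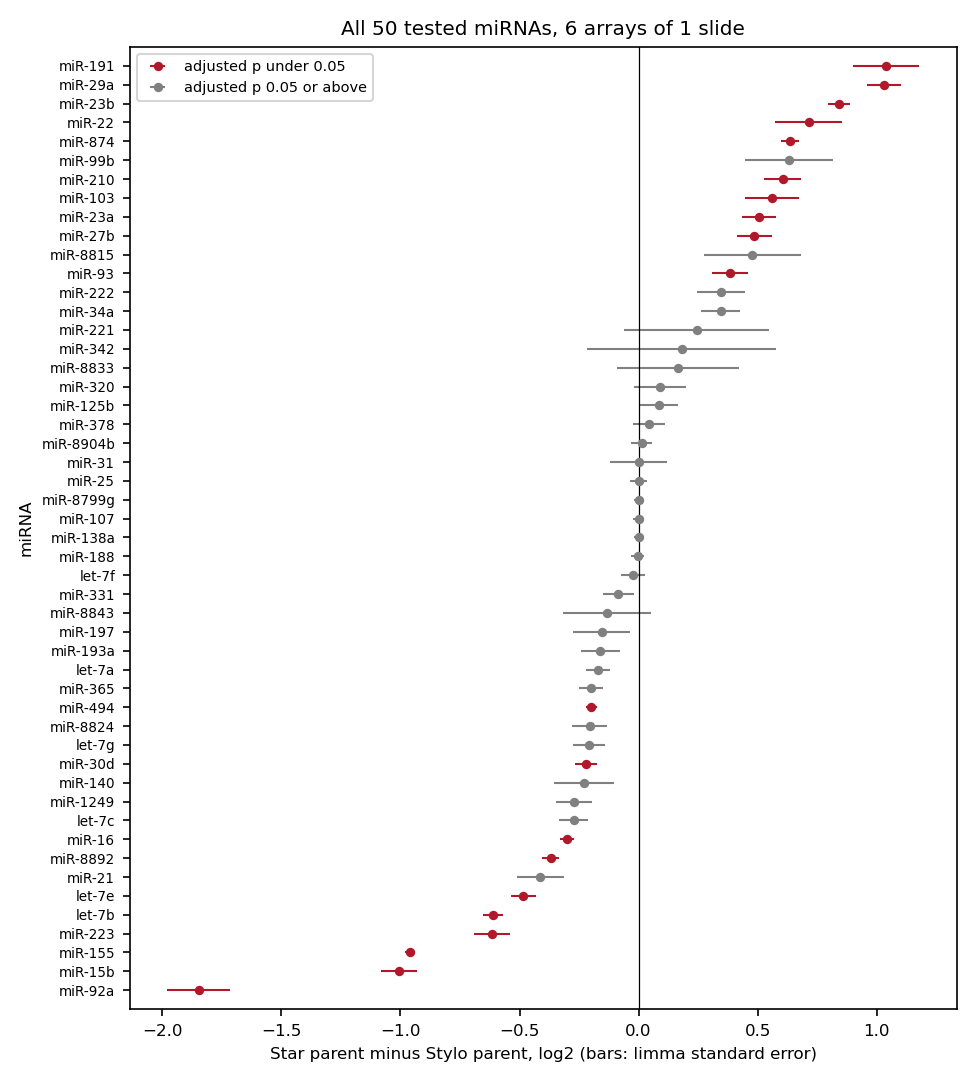
Difference between Star parent and Stylo parent on the log2 scale (x axis) for all 50 tested miRNAs, with limma's standard error as bars. Red points passed an adjusted p of 0.05 (10 higher, 10 lower), grey points did not. The 5 points at 0 lay at the floor on all 3 parent arrays.

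Several miRNAs best known from drug resistance did not pass. Of 29 listed for doxorubicin resistance or drug efflux, 9 were tested, 1 rose (miR-210) and 1 fell (miR-155), where 40% of all tested passed. The list median was 0.00, as over all tested, with miR-25 and miR-138a at the floor on every parent array. MiR-34a, a p53 target that lowers cell-cycle genes, stood at −0.44 and −0.55 in Star and −0.84 in Stylo, 0.34 ± 0.08 higher (adjusted p = 0.0639). MiR-222, which targets the cell-cycle inhibitor p27 in human cells, stood at −1.47 and −1.61 against −1.89, 0.35 ± 0.10 higher (adjusted p = 0.0867). Both Star arrays lay above Stylo for these 2, as for 16 of all 50 tested. MiR-221, its neighbour, stood at −1.86 and −2.38 against −2.36, so the lines overlapped (0.24 ± 0.31, adjusted p = 0.643). MiR-21, which lowers the tumour suppressor PDCD4, stood at −1.14 and −1.32 against −0.81 (−0.41 ± 0.10, adjusted p = 0.0639), with unscaled signals of 86.4 and 77.0 against 87.2. MiR-331, which lowers ERBB2 in human cells, was at −0.09 (limma adjusted p = 0.422), with a value-table difference of −0.14. MiR-125b, of the miR-125 and miR-99 group, was at 1.58 and 1.45 against 1.43 (0.08 ± 0.08, adjusted p = 0.525). MiR-31, miR-25 and miR-138a were not well above background on any parent array and lay at the floor in all 3. None of the listed mesenchymal (6), muscle (8), neural (8 on the array), endothelial (1) or liver (1) miRNAs was well above background on a parent array, nor was any of the 4 of the miR-181 family, the 2 of miR-26 or the 6 of the miR-130 and miR-148 families.

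**Figure D4:**
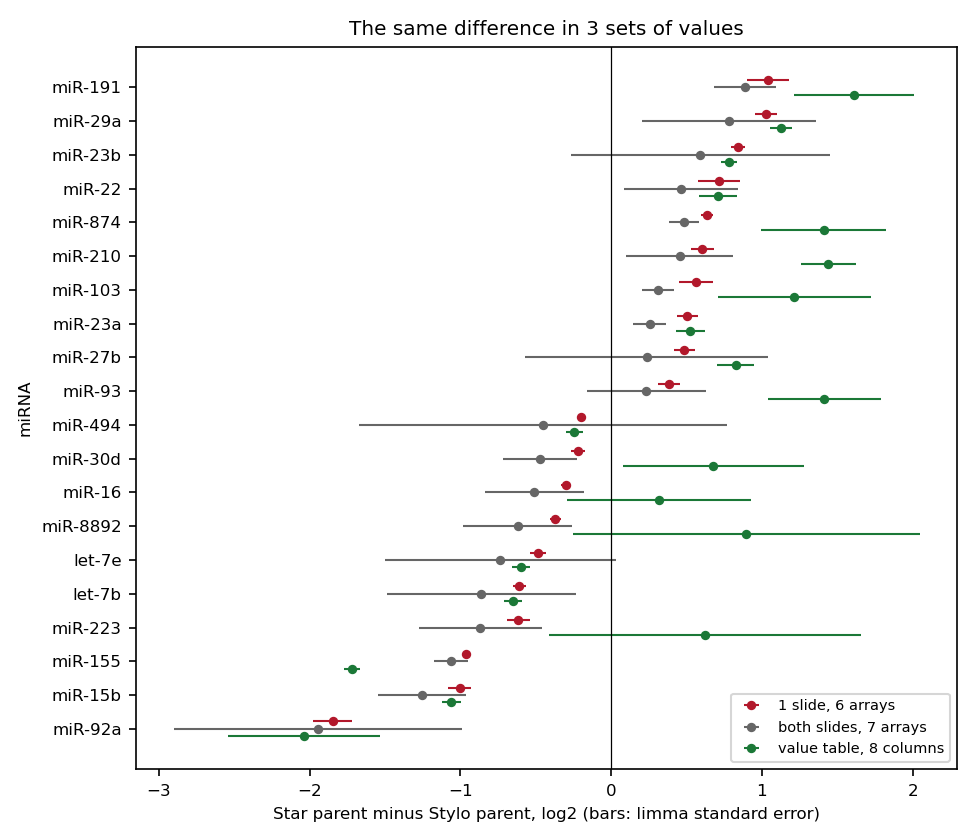
Difference between Star parent and Stylo parent on the log2 scale (x axis, bars are limma's standard errors) of the 20 miRNAs in 3 sets of values, the 6 arrays of 1 slide, all 7 arrays, and the 8 columns of the value table. The sign is shared by all 3 sets except for miR-30d, miR-16, miR-8892 and miR-223, whose value-table points lie above 0 and whose second Stylo column was at the floor, with the first above both Star columns, and the 7-array bars are wider for most.

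The same line difference was measured in the sorted cells (2 Star arrays and 1 Stylo array of the same slide), which allows a test of whether it differs from that in the parents. It did for 20 of 50 miRNAs (40%; limma, adjusted p below 0.05), 13 of them among the 20 that passed in the parents, 7 higher and 6 lower there. Of those 13, 11 had the opposite sign in the sorted cells, 6 of them past the threshold there. Picking miRNAs by a large gap between the parent and sorted differences itself favours opposite signs. Of all 50 tested, 23 (46%) passed between sorted Star and sorted Stylo cells. MiR-92a, at −1.85 between parents, was 0.80 higher in sorted Star than in sorted Stylo cells (difference of differences −2.65 ± 0.19, adjusted p = 0.00753). Its Star parent values lay at the floor, so this is a distance to it. MiR-15b went from −1.005 to 0.43 (−1.44 ± 0.11, adjusted p = 0.00756) and let-7e from −0.48 to 0.54 (−1.03 ± 0.07, adjusted p = 0.00753). MiR-23b went from 0.84 to −0.33 (1.17 ± 0.07, adjusted p = 0.00523). These 4 parent differences had the opposite sign in the sorted cells. For miR-103 (0.56 in parents, 0.80 in sorted cells) and miR-874 (0.64 and 0.51) the test did not pass (adjusted p = 0.308 and 0.168), and both were higher in Star in each. In total, 4 miRNAs passed in both kinds of cells with the same sign and 6 with the opposite sign. Each Stylo group had 1 array here, so these differences rest on 2 single arrays.

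**Figure D5:**
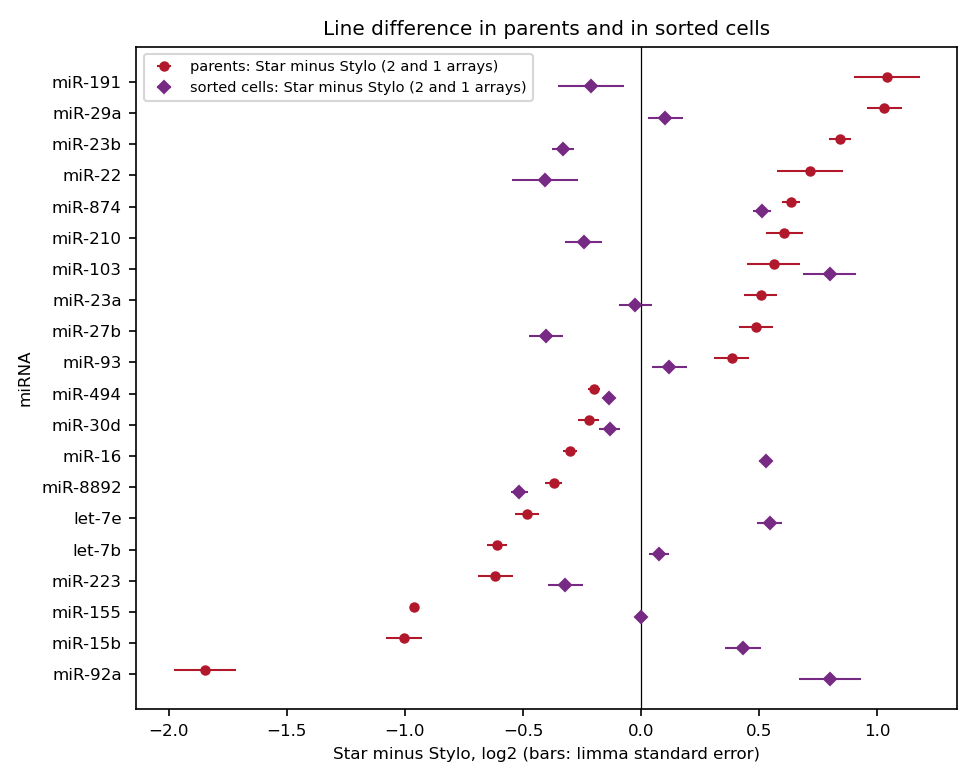
Star minus Stylo difference on the log2 scale (x axis, bars are limma's standard errors) in parent cells (circles) and in sorted cells (diamonds) for the 20 miRNAs that passed in the parents. MiR-92a, miR-15b and let-7e lie below 0 in parents and above 0 in sorted cells, and miR-23b the reverse, while miR-103 and miR-874 lie above 0 in both.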

How the data were processed

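Total RNA (100 ng, integrity number 7 or more) was labelled with Cy3 and hybridised to 1-colour Agilent miRNA arrays, per the labels' protocols. The deposited scanner files hold background-subtracted intensity per spot from Agilent Feature Extraction (11.5.1.1, per the submitters' processing notes), and the other values used are quality flags. Log2 values of unstated scale and centring fill the deposited value table. Removing 1 constant per entry, set with Star parent replicate 1 as reference, and 1 per column gave the log2 scanner totals (tolerance 0.01), so scale and direction are known. All 475 entries followed the scanner files in 6 columns (in the reference column by construction), but 417 did for Stylo parent replicate 2 and 420 for sorted Stylo replicate 1, whose columns hold other values. The column medians were −0.941, −0.635, 0.0127, −0.116, 6.15, −0.0127, 0.293 and 6.15 (sorted Star 1 and 2, Star parent 1 and 2, sorted Stylo 1 and 2, Stylo parent 1 and 2).

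Spots of a probe were averaged without outlier flags (3.97% to 4.58% of spots on the parent arrays), the probes of a miRNA summed, and each array divided by its 75th percentile, taken over the 39 probes that all 6 arrays measured. The floor was the median, over arrays, of the lowest measured signal. A miRNA counted as measured where more than 50% of the spots of any of its probes were well above background, and was tested where this held on every array of at least 1 group. Tests were two-sided (R 4.3.3, limma 3.58.1). With 2 arrays against 1 no permutation test can pass. The files hold no mean spot signal, so normexp used the median. Neighbours come from the dog RefSeq table (UU_Cfam_GSD_1.0, 49 of 50 tested miRNAs matched), within 10000 bases. Its build is not that of the array, so no coordinates are given.

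The miRNA lists, the choice of arrays for the main fit and the tests were made with earlier results of these data known. Named miRNAs are those that passed on the slide, in the value table or over 7 arrays, those measured on both Star arrays but not on the Stylo array or the reverse, 8 fixed miRNAs, and the tested list members. The number of arrays limits the precision.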

Additional observations from a re-analysis of the deposited data

Results flagged for a closer look

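For 17 of the named miRNAs the Star minus Stylo difference in the parents differed from that in the sorted cells, past an adjusted p of 0.05 in limma's test of that difference. The difference of differences (parents minus sorted cells, log2) was positive for miR-138a (1.27, adjusted p = 0.00173), miR-191 (1.25, adjusted p = 0.0308), miR-23b (1.17, adjusted p = 0.00523), miR-22 (1.12, adjusted p = 0.0362), miR-29a (0.93, adjusted p = 0.0167), miR-27b (0.89, adjusted p = 0.0167), miR-210 (0.85, adjusted p = 0.0219) and miR-23a (0.53, adjusted p = 0.0402). It was negative for let-7c (−0.57, adjusted p = 0.0307), let-7b (−0.68, adjusted p = 0.0106), miR-16 (−0.83, adjusted p = 0.00516), miR-155 (−0.96, adjusted p = 0.00184), let-7g (−1.01, adjusted p = 0.0114), let-7e (−1.03, adjusted p = 0.00753), miR-31 (−1.05, adjusted p = 0.0308), miR-15b (−1.44, adjusted p = 0.00756) and miR-92a (−2.65, adjusted p = 0.00753). MiR-138a and miR-31 lay at the floor on all 3 parent arrays, so their values are differences in the sorted cells alone. MiR-155 lay at the floor on all 3 sorted arrays and both Star parent arrays, so its value repeats the parent difference and its error holds no measured spread. For miR-191 and miR-210 the Stylo parent array, and for miR-92a both Star parent arrays, lay at the floor, so their values include a distance to it. Scaled over all probes, the same test passed for 0 of 50 miRNAs, against 20.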

How the results depend on the processing

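The count of 20 lay within 1.5 times, at 14 to 26, with software totals, quantile normalisation, a trend, a halved floor, both other filters, and the value table with 8 columns, without its second Stylo parent column or unscaled. With quantile normalisation 13 of the 20 remained. MiR-23b (limma adjusted p = 0.0886) was among those lost, as was let-7b, whose difference is 0 there by construction. The count moved to 1 with all 7 arrays, 32 with the slide as a block, 7 with the 3 parent arrays, 8 with double the floor, 33 with normexp (3 higher, 30 lower), 5 without scaling, 4 when 2-fold was also asked, and 11 in the 4 parent columns of the value table. Limma passed 0 when scaled over all probes and 0 in the value table as deposited, where an unadjusted p fell below 0.05 for 2 miRNAs in each, and the parent against sorted test also came to 0 over all probes. Leaving out 1 array gave 3 to 19. The cause was not tested, except that the deposited columns carry their own shifts by construction. No paired analysis was possible because Stylo parent has 1 distinct array in the scanner files. In the value table the replicate block gave 13 calls. Same-numbered parents correlated at 0.148 and sorted cells at −0.154, and parent with sorted cells at −0.577 in Star and −0.50 in Stylo. These values show no pairing by number. They cannot decide it, since the columns of Stylo parent replicate 2 and sorted Stylo replicate 1 depart from their scanner files. The unscaled, 4-column and probe-mean settings were chosen after seeing the data.

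Of alternatives for miRNAs that passed, 251 of 484 kept direction and call, 199 lost the call and 34 reversed, and of those for miRNAs that did not pass, 271 of 349 were alike, 45 gained a call and 33 reversed. The reversed differences (log2) were as follows. Without scaling, let-7a came to 0.15, let-7c 0.045, let-7f 0.29, let-7g 0.051, miR-16 0.016, miR-30d 0.10, miR-331 0.23 and miR-494 0.12. In the 8 value-table columns, with or without the replicate block, let-7g came to 0.50, miR-125b −0.028, miR-16 0.32, miR-223 0.62, miR-30d 0.68 and miR-8892 0.90. In its 4 parent columns they came to 0.48, −0.027, 0.30, 0.60, 0.66 and 0.87. Unscaled, the table gave let-7a 0.049, let-7f 0.32, let-7g 0.61, miR-16 0.42, miR-21 0.10, miR-223 0.73, miR-30d 0.79, miR-331 0.19, miR-494 0.087 and miR-8892 1.00. As deposited it gave miR-125b −2.97, miR-22 −2.23, miR-221 −2.92, miR-23a −2.42, miR-23b −2.16, miR-27b −2.11, miR-29a −1.81, miR-34a −2.51, miR-30d 0.035 and miR-8892 0.25. Scaling over all probes gave miR-103 −0.16, miR-125b −0.63, miR-22 −0.0039, miR-221 −0.47, miR-222 −0.37, miR-23a −0.21, miR-27b −0.23 and miR-34a −0.37, with a median of −0.69 over all tested. Normexp gave miR-103 −0.078, miR-221 −0.17, miR-222 −0.052, miR-874 −0.014, miR-93 −0.083 and miR-99b −0.046. With all 7 arrays, slide as a block or not, miR-125b came to −0.17 and miR-221 to −0.0074. Leaving out a Star parent array gave miR-221 −0.016 (without replicate 1) to 0.50 (without replicate 2) and let-7f −0.061 (without replicate 1) to 0.015 (without replicate 2), and software totals gave let-7f 0.024. Signal over background limits the miRNAs at the floor, whose errors are too small.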
